A study of Homo sapiens with 6 samples.

Results

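The integrin receptors and the core proteins of focal adhesions were examined in the human gastric cancer line YCC3 after silencing of CTNNB1, the gene of beta-catenin. The set was fixed by gene symbol: 24 integrin chains, 2 talins, 3 kindlins, and the genes ILK, PTK2 and PXN, 32 in all. A gene was measured where an array row carried its symbol and no other, and the brightest such row over the 6 arrays was used. That gave 31 of the 32 genes among 18417 genes on the array. ITGA1, a collagen-binding chain, had no row of its own, since its row was shared with PELO.

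Cells were transfected with CTNNB1 siRNA (3 arrays) or with non-targeting control siRNA (3 arrays), and total RNA was taken 48 hours later. Both groups were YCC3 cells that went through transfection, and an untransfected group was not analysed here. The labels give neither the siRNA sequences nor whether the biological replicates were separate cultures, so the spread behind each p-value is that of these 6 arrays and may be in part technical. Values are the authors' log2 RMA signals, with array medians between 5.88 and 5.95. Since whole cultures were measured, fewer cells of a type and less RNA per cell cannot be told apart.

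Integrins are pairs of an alpha and a beta chain that span the membrane and bind extracellular matrix outside the cell. The alpha chain largely sets the ligand, and the beta1 chain serves many alpha chains. Talins and kindlins bind the tail of the beta chain and switch the receptor to its high-affinity state. Paxillin, focal adhesion kinase (PTK2) and integrin-linked kinase (ILK) then join the adhesion to signalling and to actin. In epithelia, beta-catenin sits at the neighbouring structure, the cadherin junction, and also acts with TCF/LEF factors in the nucleus.

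The targeted transcript was lower on every CTNNB1 siRNA array. CTNNB1 measured 10.94, 11.06 and 11.20 on the CTNNB1 siRNA arrays, against 11.80, 11.81 and 11.90 on the control arrays, which is 41.4% less signal (limma, adjusted p = 0.00267). IFIT1, an interferon-stimulated gene chosen after its values were seen, was 19.3-fold higher with CTNNB1 siRNA, and what part of any change below goes with either difference cannot be told apart. Epithelial markers matched the label of the line, with 9 of 9 measured genes above the median signal of all genes. Their mean log2 signal was 11.15 to 11.22 on CTNNB1 siRNA arrays and 10.96 to 11.05 on control arrays. CLDN4 and ELF3 of them rose, 2 of 9 (22.2%), against 2.07% of all genes called higher and 4.72% called in either direction. KRT18 was lower with CTNNB1 siRNA, a log2 change of -0.29 that did not pass (limma, adjusted p = 0.127). KRT8, KRT19 and EPCAM had changes of 0.01 to 0.02, and 8 of the 9 changes were positive, against 9425 of 18417 over all genes.

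FERMT1 and ITGA6 fell and ITGA5 and ITGB6 rose with CTNNB1 siRNA, and the other 27 measured members did not pass the threshold of 0.05 on limma's adjusted p. FERMT1 encodes kindlin-1, the epithelial kindlin, and its signal was 44.0% lower. ITGA6, a laminin-binding chain, was 31.0% lower. ITGA5, the alpha chain of the classical fibronectin receptor, was 1.65-fold higher, and ITGB6, the beta chain of an epithelial receptor that activates latent TGF-beta, was 1.49-fold higher.

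These 4 calls are 12.9% of the 31 genes, where 4.72% of all genes were called. By direction, 2 of 31 rose (6.45%), against 2.07% of all genes, and 2 of 31 fell (6.45%), against 2.65% of all genes. At an unadjusted p under 0.05 the share of members was near that of all genes, with 6 of 31 (19.4%), against 20.3% of all genes. The median change over the members was 0.05 log2 units, against 0.01 over all genes, and 20 of 31 changes were positive, against 9425 of 18417 over all genes. That median was smaller under the other scalings, at 0.015 after a second quantile normalization, 0.0076 after median centring (-0.033 over all genes) and 0.0055 after cyclic loess scaling, with 16 to 18 of the 31 changes positive. The 2 rises and 2 falls were called under each of the other scalings tried. Over all genes the scaling moved the split, which was 382 higher and 488 lower as deposited, 340 and 667 after median centring, and 486 and 407 after cyclic loess scaling. No filter on dim genes was applied, and 15 of the 31 members lay below the median signal of all genes, where they are not shown to be above background.

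**Figure D1:**
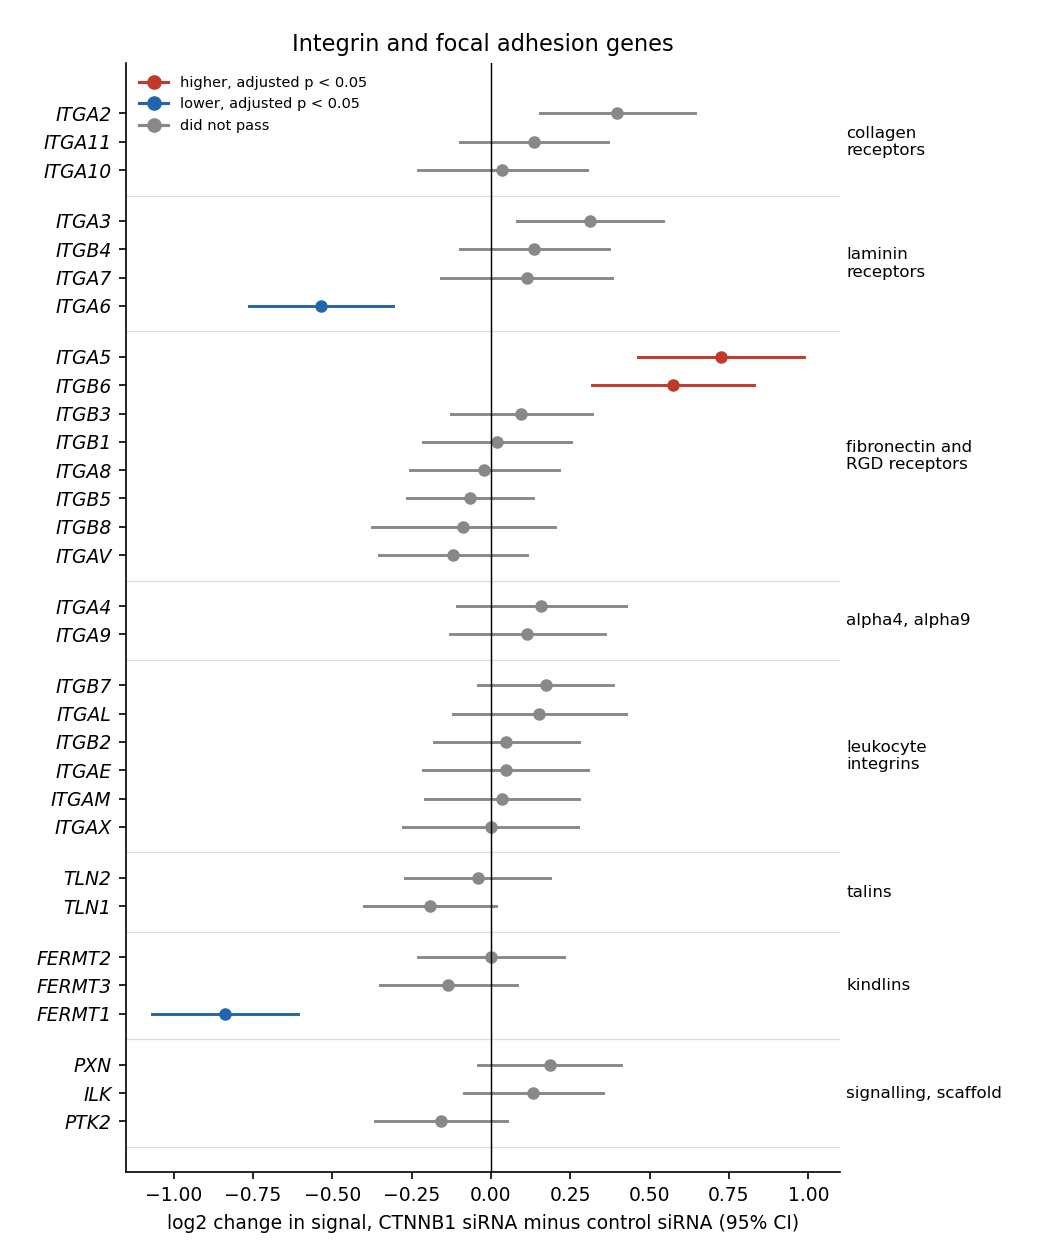
Log2 change in signal, CTNNB1 siRNA minus control siRNA, for the 31 measured genes grouped by role (points, with 95% confidence intervals of the limma fit as lines). ITGA5 (0.73) and ITGB6 (0.57) lie to the right of 0 and ITGA6 (-0.54) and FERMT1 (-0.84) to the left, and of the other intervals all but those of ITGA2 and ITGA3 include 0.

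Among the 3 kindlins, FERMT1 fell. It measured 7.87, 7.77 and 7.99 on the CTNNB1 siRNA arrays and 8.68, 8.63 and 8.83 on the control arrays. The highest CTNNB1 siRNA array lay well below the lowest control array. The log2 change was -0.84 ± 0.10 (SE), or 34.4% to 52.3% less signal in the 95% confidence interval, with a limma adjusted p of 0.00182. Among all 18417 genes its fall ranked 16th and that of CTNNB1 36th. The call held in each of the 15 other fits made of this gene, with changes from -0.89 to -0.78. Loss of FERMT1 in people causes Kindler syndrome, in which the epidermis detaches from its basement membrane.

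The other kindlins did not pass. FERMT2, the widely expressed kindlin-2, measured 5.17, 5.09 and 5.18 on CTNNB1 siRNA arrays and 5.31, 5.07 and 5.06 on control arrays, a change of 0.0002 log2 units with an interval of -0.23 to 0.23. FERMT3, the kindlin of blood cells, had a change of -0.13 ± 0.10 (SE; adjusted p = 0.491 in limma). Both lay below the median signal of all genes. Whether FERMT1 changed more than either of them was not tested.

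Chains of the fibronectin receptor and of other receptors for RGD-containing ligands did not pass apart from 2. ITGA5 measured 7.23, 7.24 and 6.96 on CTNNB1 siRNA arrays and 6.57, 6.39 and 6.29 on control arrays, with no overlap. The log2 change was 0.73 ± 0.12 (SE), a 1.65-fold rise with an interval of 1.38 to 1.98 (limma, adjusted p = 0.00805). It was called in 14 of 15 other fits, the exception being the one that left out CTNNB1 siRNA replicate 1 (adjusted p = 0.0533, log2 change 0.68).

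ITGB6 measured 7.59, 7.66 and 7.88 with CTNNB1 siRNA and 6.98, 7.21 and 7.23 with control siRNA. Its arrays did not overlap either, and the log2 change was 0.57 ± 0.12 (SE; adjusted p = 0.0209 in limma). It passed in 1 of the 6 fits that left out an array, the one without control replicate 2. In the other 5 the adjusted p lay between 0.0503, without control replicate 3, and 0.106, without control replicate 1.

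The chains that pair with these 2 did not pass. ITGB1, the beta chain that completes the fibronectin receptor with ITGA5, measured 9.67, 9.63 and 9.84 on CTNNB1 siRNA arrays and 9.81, 9.66 and 9.61 on control arrays. The groups overlapped, and the interval of its log2 change ran from -0.21 to 0.25. ITGAV, the alpha chain that pairs with ITGB6, had 9.01, 9.05 and 9.29 with CTNNB1 siRNA and 9.26, 9.22 and 9.23 with control siRNA, an interval of -0.35 to 0.11. Other beta chains that pair with ITGAV include ITGB5 (-0.07, interval -0.27 to 0.13), ITGB8 (-0.09, interval -0.38 to 0.20) and ITGB3 (0.10, interval -0.13 to 0.32), all in log2 units. ITGA8, a dim RGD-binding chain, had a change of -0.02.

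**Figure D2:**
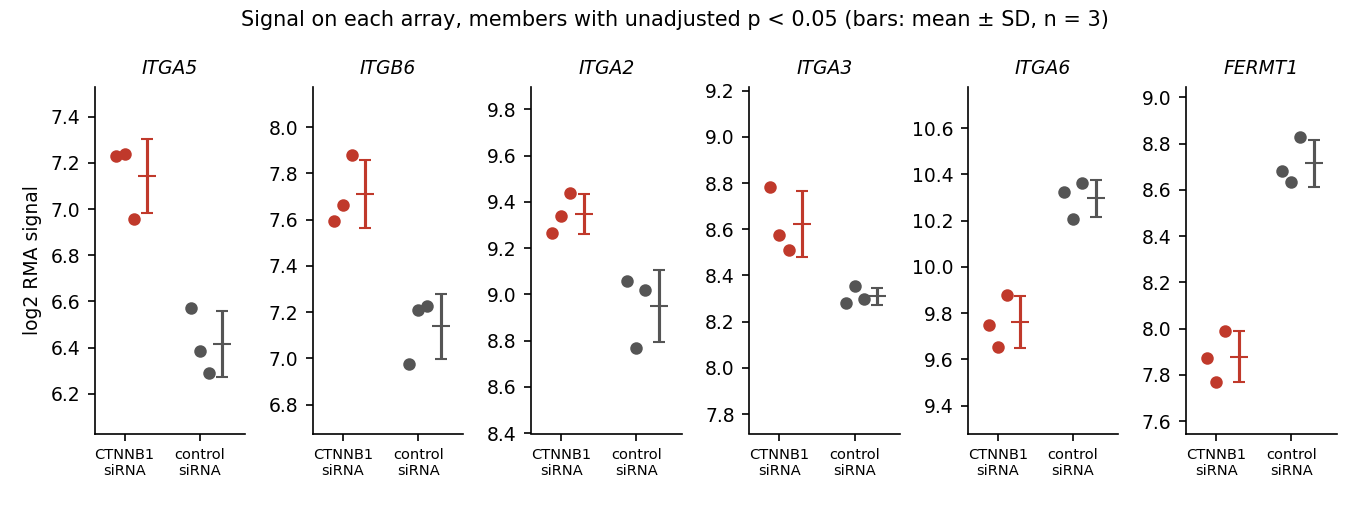
Log2 RMA signal on each array (points; replicates 1 to 3 from left to right) for the 6 members with an unadjusted p under 0.05, CTNNB1 siRNA left of control siRNA, with bars for the mean ± SD (n = 3 each). Each panel spans 1.5 log2 units around its own centre, and in none of them do the groups overlap. ITGA5, ITGB6, ITGA6 and FERMT1 passed after adjustment and ITGA2 and ITGA3 did not.

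Of the 4 laminin receptor chains, ITGA6 fell and 3 did not pass. ITGA6, which forms hemidesmosomes with ITGB4, measured 9.75, 9.65 and 9.88 on CTNNB1 siRNA arrays and 10.32, 10.21 and 10.36 on control arrays. All 3 CTNNB1 siRNA arrays were below all 3 control arrays. The log2 change was -0.54 ± 0.10 (SE), which is 19.3% to 41.0% less signal (limma, adjusted p = 0.0166). The call was lost in 4 of the 6 fits that left out an array, those without control replicate 1 (adjusted p = 0.0832), control replicate 3 or either of CTNNB1 siRNA replicates 1 and 2.

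ITGA3, the other main laminin-binding alpha chain of epithelia, lay on the opposite side. It measured 8.78, 8.58 and 8.51 with CTNNB1 siRNA and 8.28, 8.35 and 8.30 with control siRNA, a log2 change of 0.31 ± 0.10 (SE) that did not pass (limma, adjusted p = 0.119). It passed in 1 of the 9 other fits that kept all arrays, the one without the dimmest 50% of genes (adjusted p = 0.0332). ITGB4, the partner of ITGA6 in hemidesmosomes, had a change of 0.14 ± 0.11 (SE), with overlapping groups and an adjusted p of 0.525 in limma. ITGA7, a laminin-binding chain best known from muscle, had a change of 0.11 at a dim signal.

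Among collagen receptor chains, ITGA2 came nearest to the threshold. ITGA2 pairs with ITGB1 to bind collagen on epithelial cells and platelets. It measured 9.27, 9.34 and 9.44 on CTNNB1 siRNA arrays and 9.06, 8.77 and 9.02 on control arrays. The groups did not overlap, and the log2 change was 0.40 ± 0.11 (SE; adjusted p = 0.0694 in limma). At the same threshold it passed in 5 of the 9 other fits that kept all arrays, among them cyclic loess scaling (adjusted p = 0.0328), and in none of the 6 fits without an array. ITGA10 and ITGA11, known from cartilage and fibroblasts, were dim, with changes of 0.04 and 0.14.

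Chains of leukocyte integrins were dim and did not pass. None of ITGAE, ITGAL, ITGAM, ITGAX, ITGB2 and ITGB7 passed in limma, and none had an unadjusted p under 0.05. Of all genes 4.72% passed and 20.3% had such a p, and a list of 6 genes is too short to set apart from these shares. Their changes lay between -0.0012 and 0.17 log2 units, the highest for ITGB7 with 5.43, 5.43 and 5.44 on CTNNB1 siRNA arrays and 5.30, 5.34 and 5.15 on control arrays. ITGA4 and ITGA9, which bind VCAM1 and other ligands, had changes of 0.16 and 0.11 and were also below the median signal. Of 11 measured leukocyte markers, only CD68, also found in other cells, passed (9.09%, against 4.72% of all genes), with a log2 rise of 0.95. The mean log2 signal of these markers was 5.60 to 5.78 on CTNNB1 siRNA arrays and 5.45 to 5.63 on control arrays. CD68, LYZ and TYROBP lay above the median signal of all genes and the other 8 below it. LYZ, the gene of lysozyme, which gastric epithelium also makes, was at 12.07 ± 0.07 with CTNNB1 siRNA and 12.36 ± 0.04 with control siRNA (SD, n = 3 each; adjusted p = 0.113 in limma). PTPRC, which marks leukocytes at large, was the dimmest of the 11. It lay below the median signal of all genes, at 2.67 ± 0.07 with CTNNB1 siRNA and 2.58 ± 0.19 with control siRNA (SD, n = 3 each). None of 12 markers of endothelium, fibroblasts and platelets passed in limma, against 4.72% of all genes. None had an unadjusted p under 0.05, against 20.3% of all genes.

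The talins and the signalling and scaffold genes PTK2, PXN and ILK did not pass either. TLN1, the main talin outside muscle and brain, measured 7.726 ± 0.034 on CTNNB1 siRNA arrays and 7.917 ± 0.079 on control arrays (SD, n = 3 each), which differ by -0.19 ± 0.09 log2 units (SE; adjusted p = 0.289 in limma). PTK2 had 8.90, 8.93 and 9.05 with CTNNB1 siRNA and 9.08, 9.12 and 9.14 with control siRNA, a change of -0.16 ± 0.09 (SE; adjusted p = 0.392 in limma). PXN lay the other way, at 8.01, 7.78 and 7.78 with CTNNB1 siRNA and 7.68, 7.64 and 7.70 with control siRNA, a change of 0.19 ± 0.10 (SE; adjusted p = 0.347 in limma). The groups of these 3 genes did not overlap, though their shifts were small. A dimmer array row of PXN gave a change of 0.06. ILK had a change of 0.13 and TLN2 of -0.04, each with overlapping groups.

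In all, 11 of the 31 members had groups that did not overlap (35.5%), against 26.0% of all genes. Beyond the 6 with an unadjusted p under 0.05, these were TLN1, PTK2, PXN, ITGB5 and ITGB7. Of the 27 members that did not pass, 25 had a 95% confidence interval within 0.5 log2 units of 0 on either side. The exceptions were ITGA2, with an upper bound of 0.64, and ITGA3, with 0.54. Changes of the size seen in FERMT1 lay outside the interval of each of these 27 genes.

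Promoter sequence is shown for the 3 integrin genes that passed, since beta-catenin acts through TCF/LEF factors that bind DNA. RefSeq promoter windows (GRCh38.p14) were matched for 22 of the 32 genes, FERMT1 not among them, so its promoter was not searched. In each, the 250 bases before a start site were searched on both strands for CTTTGA and CTTTGT, the core letters of TCF/LEF sites, and for GGGCGG, the GC box. Sequences run 5′ to 3′ on the gene's strand, and capitals mark a GC box, printed as its reverse complement CCGCCC.
ITGA5, chr12:54419267-54419516, minus strand: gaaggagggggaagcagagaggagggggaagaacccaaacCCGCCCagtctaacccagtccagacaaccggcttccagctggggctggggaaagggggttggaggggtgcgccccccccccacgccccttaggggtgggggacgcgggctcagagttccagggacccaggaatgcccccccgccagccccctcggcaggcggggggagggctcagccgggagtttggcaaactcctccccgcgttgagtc
ITGB6, chr2:160200273-160200522, minus strand: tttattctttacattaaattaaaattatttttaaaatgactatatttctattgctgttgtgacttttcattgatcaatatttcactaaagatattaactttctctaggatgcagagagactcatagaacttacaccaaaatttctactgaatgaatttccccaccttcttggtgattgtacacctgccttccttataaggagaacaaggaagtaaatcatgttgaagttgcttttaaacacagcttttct
ITGA6, chr2:172427086-172427335, plus strand, before the first of its listed start sites: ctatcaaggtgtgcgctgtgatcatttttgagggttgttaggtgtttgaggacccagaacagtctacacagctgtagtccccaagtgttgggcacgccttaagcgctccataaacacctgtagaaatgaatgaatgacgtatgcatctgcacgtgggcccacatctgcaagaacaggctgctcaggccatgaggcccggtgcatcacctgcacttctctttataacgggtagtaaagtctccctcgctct

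None of the 3 windows printed held CTTTGA or CTTTGT, whereas 22.8% of 35116 promoter windows of the same length in the table did. Among all 29 windows of the members 5 held either core (17.2%), in ITGA1, ITGAE, ITGAM, ITGAV and FERMT3. The ITGA5 window held 1 GC box, a motif found in 42.6% of all windows, and the other windows shown held none. A second ITGA6 window in the table, chr2:172427336-172427585 on the plus strand, is not printed. It held 3 GC boxes and neither TCF/LEF core. G and C made up 70.0% of the ITGA5 window, 50.8% and 71.6% of the first and second ITGA6 windows, and 30.0% of the ITGB6 window. These are descriptions of letters in short windows and say nothing of binding here or elsewhere.

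Among the matrix and cell surface ligands of integrins, 2 laminin chains fell. LAMB1 and LAMC1, the beta1 and gamma1 chains found together in several laminins that ITGA6 and ITGA3 receptors bind, were the 2 of 48 measured ligand genes that passed, and none rose. That is 4.17% of the list, near the 4.72% of all genes. LAMB1 measured 8.84, 8.65 and 8.83 on CTNNB1 siRNA arrays and 9.53, 9.44 and 9.56 on control arrays. The gap between the groups was wider than the spread within either. The signal was 0.600 times that of control, and the fall of 0.74 ± 0.10 log2 units (SE; adjusted p = 0.00301 in limma) was called in each of the 15 other fits.

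LAMC1 measured 8.50, 8.45 and 8.57 with CTNNB1 siRNA and 8.99, 8.81 and 8.97 with control siRNA, a log2 change of -0.42 ± 0.10 (SE; adjusted p = 0.0409 in limma). It did not pass under cyclic loess scaling (adjusted p = 0.0555) or in any of the 6 fits that left out an array (0.0518 to 0.169). LAMB2, the beta2 chain that can take the place of LAMB1 in laminins, was named after its values were seen. It measured 7.71, 7.75 and 7.66 on CTNNB1 siRNA arrays and 7.28, 7.43 and 7.27 on control arrays, a log2 change of 0.38 ± 0.10 (SE) just short of the threshold (limma, adjusted p = 0.0512). It passed in 7 of the 9 other fits that kept all arrays, among them cyclic loess scaling (adjusted p = 0.0370) and the replicate block (0.0458), and in none of the 6 without an array. Fibronectin, the ligand of the ITGA5 receptor, was also looked up after the fact, and FN1 had a change of 0.10 ± 0.11 (SE; adjusted p = 0.675 in limma). The median change of the ligand list was 0.05, and 30 of its 48 genes lay below the median signal of all genes.

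Of 52 measured genes of focal adhesion partner proteins, 1 fell and 1 rose in signal, which is 3.85% of the list and below the 4.72% of all genes. DOCK1, an exchange factor that activates Rac downstream of focal adhesions, measured 6.64, 6.62 and 6.86 on CTNNB1 siRNA arrays and 7.38, 7.21 and 7.46 on control arrays. Its signal was 35.8% lower, with a log2 change of -0.64 ± 0.11 (SE; adjusted p = 0.0112 in limma). TNS1, a tensin that links the integrin beta tail to actin, measured 7.49, 7.38 and 7.05 with CTNNB1 siRNA and 6.48, 6.84 and 6.77 with control siRNA, a 1.52-fold rise (limma, adjusted p = 0.0375). Neither pair of groups overlapped.

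Both calls were lost in some of the 6 fits that left out an array. Over these 6 fits the log2 change ran from -0.72 to -0.59 for DOCK1 and from 0.50 to 0.73 for TNS1. The 2 fits that lost DOCK1 called 283 and 288 of all genes, against 870 with every array kept. DOCK1 did not pass when CTNNB1 siRNA replicate 1 (adjusted p = 0.0637) or control replicate 1 (0.0584) was left out, and TNS1 was lost in 4 of the 6 such fits, with 0.151 when control replicate 1 was left out. PTK2B, the relative of focal adhesion kinase also known as PYK2, was named after its values were seen. Its log2 change was 0.36 ± 0.10 (SE; adjusted p = 0.0658 in limma). It passed in 6 of the 9 other fits that kept all arrays, among them cyclic loess scaling (adjusted p = 0.0342), and in none of the 6 without an array. The interval of PTK2, -0.37 to 0.05, included 0, and whether PTK2B and PTK2 differed in their change was not tested. The median change of the partner list was 0.06. Among structural partners, VCL, the gene of vinculin, had a change of 0.06 and ACTN1, an actin cross-linker gene, of 0.003, both chosen after their values were seen. They do not stand for the list. PDLIM7 had 0.41, ZYX 0.35 and TNS3 -0.26, also named after the fact, and none of these passed in the main fit. Of the 52 changes 33 were positive and 19 negative. Groups did not overlap in 19 of the 52 genes (36.5%), against 26.0% of all genes. In limma 11 (21.2%) had an unadjusted p under 0.05, against 20.3% of all genes.

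**Figure D3:**
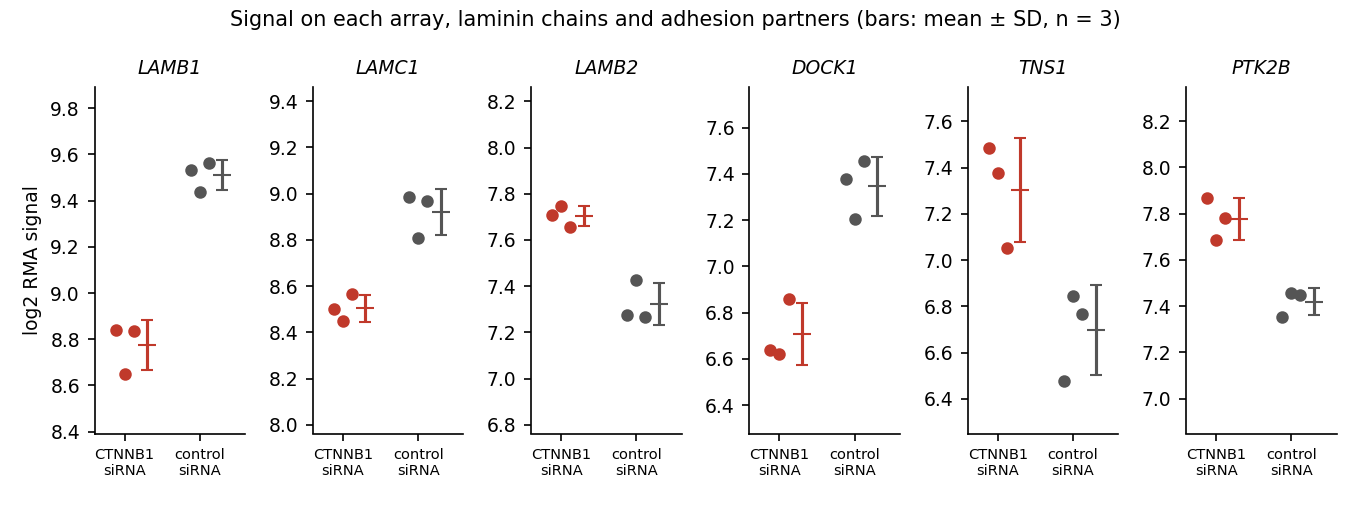
Log2 RMA signal on each array (points; replicates 1 to 3 from left to right) for 3 laminin chain genes and 3 adhesion partner genes, CTNNB1 siRNA left of control siRNA, with bars for the mean ± SD (n = 3 each). LAMB1, LAMC1 and DOCK1 are lower and TNS1 is higher with CTNNB1 siRNA, and LAMB2 and PTK2B have higher points but did not pass (adjusted p = 0.0512 and 0.0658).

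The strength of the calls differed between members. FERMT1 passed in every fit made, ITGA5 in all but 1, and ITGA6 and ITGB6 in all 9 fits that kept the 6 arrays but in 2 and 1 of the 6 that left out an array. Leaving out CTNNB1 siRNA replicate 1 left 1 member called. Leaving out CTNNB1 siRNA replicate 2, control replicate 1 or control replicate 3 left 2 called. With CTNNB1 siRNA replicate 3 left out 3 were called, and with control replicate 2 left out 4. The direction of all 4 was the same in each of these fits. Over all genes, the 6 fits that left out an array called 283 to 877, against 870 with every array kept.

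**Figure D4:**
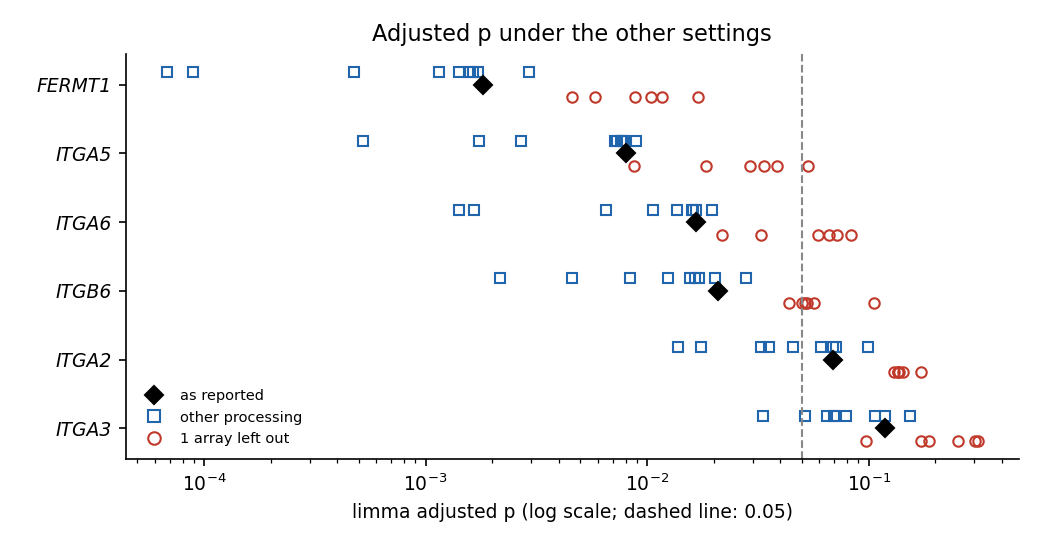
Limma adjusted p (log axis) of 6 members as reported (diamonds), under 9 other processing settings (squares) and with each of the 6 arrays left out (circles), with a dashed line at 0.05. All points of FERMT1 lie left of the line, while ITGA6 and ITGB6 cross it when single arrays are left out. ITGA5 crosses it in 1 fit, the one without CTNNB1 siRNA replicate 1 (adjusted p = 0.0533 in limma).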

How the data were processed

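RNA from YCC3 cells was measured on 6 Affymetrix Human Gene ST arrays, from 500 ng of total RNA each, per the labels' protocols. The deposited values are log2 signals made with RMA, and Affymetrix Expression Console 1.1 is named as well, per the submitters' processing notes. Their range and like medians show the log2 scale (0.789 to 14.5; array medians 5.88 to 5.95). The genome build is not given in the sources used here. Scanner intensities were not used here, so detection is unknown, and the number of arrays limits precision.

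Of 33297 rows, 19460 had exactly 1 gene symbol in the platform annotation, 1754 had several and 12083 had none. Taking the brightest row per gene left 18417 genes. CTNNB1 siRNA was compared with control siRNA gene by gene in a limma model (lmFit, then eBayes; limma 3.58.1, R 4.3.3). Two-sided p-values were adjusted by Benjamini-Hochberg across the 18417 genes, and 0.05 was the threshold. The fit was also run on simulated data, with noise independent between genes and arrays. How often that run recovered changes of the members' size is not reported here. Members and lists were chosen with earlier results of these data known. Members with an unadjusted p under 0.05, and called genes of the partner and ligand lists, were named with their values. Of the other lists, 52 of 58 partner and 48 of 51 ligand genes had a row, and 9 of 10 epithelial, 11 of 12 leukocyte and 12 of 12 other markers.

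The settings tried were a replicate block, 3 other scalings, 2 filters on dim genes, a trended robust variance, array weights, the mean of a gene's rows, leaving out each array and, with no new fit, a threshold of 0.10. Same-numbered arrays correlated at -0.02, 0.33 and 0.22 for replicates 1, 2 and 3 in their deviations from group means. Differently numbered arrays correlated at -0.29 to 0.08. The labels state no pairing, so the main fit did not take the numbers as pairs. Whether same-numbered arrays share a source of spread was not tested.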

Additional observations from a re-analysis of the deposited data

How the results depend on the processing

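CTNNB1 passed the threshold under every alternative run, with log2 changes of -0.84 to -0.69, and the 4 called members, DOCK1, TNS1, LAMB1 and LAMC1 kept their sign in all 15 other fits. Of the 31 members, 12 had the opposite sign in at least 1 of these fits, none of them called and each with a change within 0.112 log2 units of 0 as reported. VCL, ACTN1 and PTPRC also did. With the replicate number as a block, limma called 4 members, 3 partners and 4 ligands, against 4, 2 and 2 without it, and 1177 against 870 of all genes. The replicate numbers are not known to pair the arrays. The ligand count was also 4 with the dimmest 25% of genes left out, a trended robust variance, array weights or a threshold of 0.10. The partner count was 4 with the dimmest 25% left out or a threshold of 0.10 and 5 with the dimmest 50% left out. All genes called were 1483 and 1861 under these filters, 1622 with a trended robust variance and 1668 at the threshold of 0.10. The filters test fewer genes, and the cause of the other moves was not tested. The members' median change of 0.05 was 0.015 after a second quantile normalization, 0.0076 after median centring, 0.0055 after cyclic loess and -0.012 with the dimmest 50% left out. Leaving out single arrays gave 1 to 4 members, 0 to 3 partners, 1 ligand in each fit, 283 to 877 of all genes and member medians of 0.034 to 0.115. No partner passed in limma with CTNNB1 siRNA replicate 1 left out, where 10 had an unadjusted p under 0.05, or with control replicate 1 left out, where 5 had. Array signal over background is unknown, which limits what can be said of the 15 members below the median signal.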
